A study of Mus musculus with 4 samples.

Results

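The genes described here are 9 core members of the Notch pathway: the receptors Notch1, Notch2 and Notch3, the ligand Jag1, the nuclear complex genes Rbpj and Maml1, the inhibitor Numb, and the targets Hes1 and Hey1. They were chosen by name, and their levels were read in 4 stable lines of 3T3-L1 cells, a mouse preadipocyte line that stores lipid when it is given adipogenic hormones. A row was present for 8 of the 9 genes, out of 13085 genes in all, and Notch3 is not analysed here. FLAG-CACUL1 cells stably express FLAG-tagged CACUL1 and were set against FLAG cells, which carry the empty vector. sh-CACUL1 cells express a short hairpin RNA against CACUL1 and were set against sh-Luc cells, whose hairpin is directed at luciferase. All 4 lines were brought to confluence, started on adipogenesis with insulin (5 μg/mL), IBMX (0.5 mM), rosiglitazone (5 μM) and dexamethasone (1 μg/mL), fed insulin afterwards, and harvested for RNA on day 8. FLAG lines were selected with G418 and hairpin lines with hygromycin B, so the pair of controls differs in vector and drug, and whether a line came from a single colony or from a pool is not given in the sources used here. Each line had 1 sample, so no difference has a replicate check and no test or p-value is given.

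Notch receptors are single-pass membrane proteins that are activated by ligands of the Jagged and Delta-like families on a neighbouring cell. Binding exposes the receptor to an ADAM protease and then to γ-secretase, which frees the intracellular domain to enter the nucleus, where it joins the DNA-binding protein RBPJ and a Mastermind coactivator and turns on genes such as Hes1 and Hey1. In preadipocytes the pathway is known for its influence on adipogenic commitment, and without an active receptor RBPJ holds target genes down together with corepressors.

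The deposited values are FPKM, that is, fragments relative to transcript length and library size, so levels of different genes can be compared per length. Depth was estimated from the even spacing of low values as 14500000 fragments in FLAG, 14300000 with FLAG-CACUL1, 24000000 in sh-Luc and 15100000 with sh-CACUL1. Differences are given on the log2(FPKM + 1) scale, which understates changes of low genes, and a gene was called at 2-fold or more. Ratios of plain FPKM carry an exact binomial 95% interval from the estimated fragments, which covers counting error only and not variation between cultures. The whole distribution was shifted between the hairpin lines, where the median gene had a log2 fold change of -0.30 as deposited and of -0.01 after quantile normalization, against 0.09 as deposited between the FLAG lines. For that reason hairpin differences are also given after quantile normalization or median-of-ratios scaling. Cacul1 itself was at 9.61 FPKM in FLAG against 11.8 with FLAG-CACUL1, and at 10.2 in sh-Luc against 5.39 with sh-CACUL1, a log2 fold change of 0.27 between the FLAG lines and of -0.82 between the hairpin lines, or -0.36 after quantile normalization.

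The receptors Notch1 and Notch2 were lowest in sh-CACUL1. Notch1 (NM_008714, GRCm38 chr2:26457903-26516663, minus strand) encodes the founding mammalian receptor of the family. Its level was 2.41 FPKM in FLAG and 5.25 with FLAG-CACUL1, and 2.91 in sh-Luc and 0.499 with sh-CACUL1, from about 332, 711, 662 and 71 estimated fragments. The controls lay close together, FLAG-CACUL1 stood above both and sh-CACUL1 below both, and the highest sample was 10.5 times the lowest. FLAG-CACUL1 was 2.18 times FLAG (interval 1.91 to 2.48), a log2 fold change of 0.87 that stayed under the 2-fold cut-off on the log2(FPKM + 1) scale. sh-CACUL1 was 5.84-fold below sh-Luc (interval 4.58 to 7.60), a log2 fold change of -1.38, or -1.15 after quantile normalization. Against the other control the log2 fold changes kept their directions, with 0.68 for FLAG-CACUL1 over sh-Luc and -1.19 for sh-CACUL1 over FLAG.

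Notch2 (NM_010928, chr3:98013527-98150361, plus strand), the second receptor, was the more abundant of the pair in every sample. It stood at 7.97 FPKM in the FLAG control and 7.26 upon CACUL1 overexpression, and at 14.4 in the sh-Luc control and 4.06 upon knockdown. Here the controls were apart, with sh-Luc 1.80 times FLAG (interval 1.69 to 1.92), and the FLAG lines were nearly level. The log2 fold change was -0.12 between the FLAG lines and -1.60 between the hairpin lines, where sh-CACUL1 was 3.54-fold lower (interval 3.25 to 3.85). After quantile normalization the hairpin value was -1.15, and against FLAG instead of sh-Luc it was -0.83, under the cut-off. Notch2 thus passed 2-fold only against its own control, sh-Luc, which held its highest level. The ratio of Notch2 to Notch1 FPKM within a sample was 3.30 in FLAG, 1.38 upon overexpression, 4.93 in sh-Luc and 8.14 upon knockdown, lowest with CACUL1 overexpressed and highest with the CACUL1 hairpin. Notch4, a receptor best known from endothelium, was barely detected, with 0.246, 0.343, 0.0497 and 0.247 FPKM in the same order.

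Rbpj and Maml1 make up the nuclear end of the pathway. Rbpj (chr5:53466152-53657362, plus strand, 4 RefSeq transcripts in 1 row) encodes the DNA-binding protein through which the receptors act on genes in the canonical pathway. Its FPKM was 34.8 in FLAG but 15.6 with FLAG-CACUL1, and 18.1 in sh-Luc but 4.70 with sh-CACUL1. This was the widest spread of the 8 genes on the log2(FPKM + 1) scale, at 2.65, with FLAG alone at the top, sh-CACUL1 alone at the bottom, and FLAG-CACUL1 close to sh-Luc in between. Rbpj in FLAG-CACUL1 was 2.23-fold below FLAG (interval 2.09 to 2.39) and in sh-CACUL1 3.85-fold below sh-Luc (interval 3.46 to 4.30). The log2 fold changes were -1.11 and -1.74, and the latter was -1.33 after quantile normalization, so overexpression and knockdown lay on the same side of their controls. At least 2-fold lower in both comparisons was true of 105 of the 13085 genes, 0.802%. Each of these comparisons depended on its control. FLAG itself was 1.92 times sh-Luc (interval 1.82 to 2.03), a log2 fold change of 0.91 that reached 1.01 after quantile normalization and 1.19 with median-of-ratios scaling. With the controls exchanged, Rbpj gave -0.20 upon overexpression and -2.65 upon knockdown on the log2 scale, so that only the knockdown value stayed past 2-fold. Rbpj shares 10.3% of its 31-base stretches with the pseudogene Rbpj-ps3 and Notch2 shares 4.28% with Gm42820. No row of either copy was read here, and reads could be split among such copies.

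Maml1 (chr11:50255634-50292311, minus strand), the Mastermind coactivator that binds the receptor domain and RBPJ, was at 18.5 FPKM in FLAG against 14.8 upon overexpression, and at 13.0 in sh-Luc against 6.39 upon knockdown. It was lowest in sh-CACUL1 as well. The controls were apart, with FLAG 1.42 times sh-Luc (interval 1.33 to 1.52). The log2 fold change of FLAG over sh-Luc was 0.48, or 0.65 after quantile normalization. sh-CACUL1 was 2.03-fold below sh-Luc on plain FPKM (interval 1.84 to 2.24), yet the log2 fold change of -0.92 was under the cut-off and shrank to -0.48 after quantile normalization. Between the FLAG lines it was -0.30. The ratio of Rbpj to Maml1 FPKM was 1.89 and 1.05 in the FLAG lines, control first, and 1.39 and 0.736 in the hairpin lines, so the order of the pair was turned in the knockdown sample.

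Because Notch1, Notch2 and Rbpj were the members called lower between the hairpin lines on the log2(FPKM + 1) scale, the bases before their starts are shown, each as 250 bases upstream of a RefSeq start on GRCm38.p6, read 5′ to 3′ on the gene's strand. The capitals mark TGGGAA, the core of the RBPJ binding motif, or its reverse complement. The windows are chr5:53590096-53590345 (plus strand) for Rbpj, chr2:26503823-26504072 (minus strand) for Notch1 and chr3:98013288-98013537 (plus strand) for Notch2. The Rbpj and Notch1 starts used lie well inside the gene spans given above, not at their upstream ends. For Rbpj the more upstream of the starts that had a window was used.
Rbpj: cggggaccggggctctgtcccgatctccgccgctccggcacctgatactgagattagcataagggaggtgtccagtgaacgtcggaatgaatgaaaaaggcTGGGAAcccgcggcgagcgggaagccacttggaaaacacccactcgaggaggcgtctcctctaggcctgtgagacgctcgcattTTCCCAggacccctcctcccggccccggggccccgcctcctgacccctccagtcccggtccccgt
Notch1: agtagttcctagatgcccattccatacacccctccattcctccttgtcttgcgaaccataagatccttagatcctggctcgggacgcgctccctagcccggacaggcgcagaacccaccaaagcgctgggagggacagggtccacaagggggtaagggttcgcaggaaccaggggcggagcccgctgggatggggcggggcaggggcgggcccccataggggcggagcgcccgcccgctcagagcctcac
Notch2: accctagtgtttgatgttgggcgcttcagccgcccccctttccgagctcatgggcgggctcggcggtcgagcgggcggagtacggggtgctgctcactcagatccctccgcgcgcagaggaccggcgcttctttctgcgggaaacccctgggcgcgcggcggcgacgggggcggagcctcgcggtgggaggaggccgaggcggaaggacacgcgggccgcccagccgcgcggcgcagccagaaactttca
The Rbpj stretch holds the motif at 149 and 65 bases before the start, once on each strand, and the Notch1 and Notch2 stretches do not hold these letters. Both strands were searched in windows that also took in 50 bases after the start. Of 9 genes listed, 7 had such a window, with 10 windows in all, and Rbpj was the 1 gene of these with a match. The targets Hes1 and Hey1 had no window and were not searched. TGGGAA occurred in 25.6% of 32851 mouse promoter windows of the same 300 bases, so a match is common. The letters CACNAG, an N-box read by HES proteins, occurred in 42.5% of the windows, with 3 matches for Notch1, some of them overlapping each other, 1 for Notch2 and 0 for Rbpj. These are descriptions of the letters in the windows and not of binding.

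**Figure D1:**
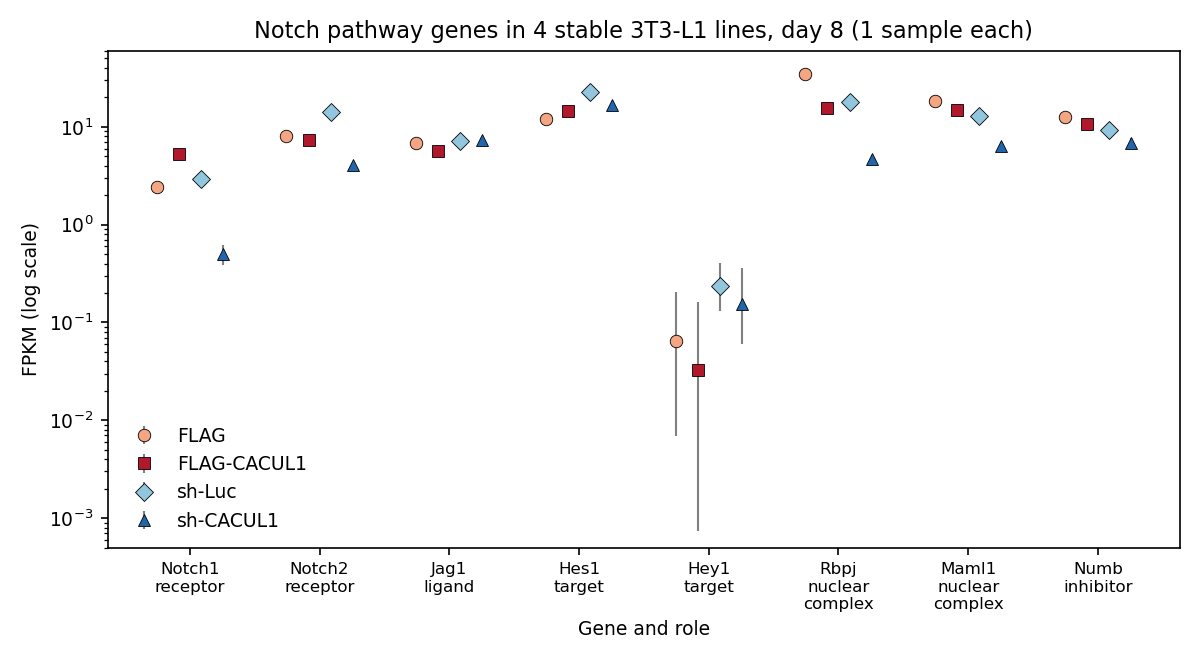
FPKM on a log scale (y axis) of the 8 Notch pathway genes with a row (x axis, with their roles) in the 4 samples, 1 point per sample; vertical lines are 95% Poisson intervals of the estimated fragments. Notch1, Notch2, Rbpj and Maml1 were lowest in sh-CACUL1, Jag1 lay between 5.67 and 7.28 in every sample, and Hey1 was under 1 FPKM throughout.

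The ligand did not follow the receptors. Jag1 (NM_013822, chr2:137081456-137116644, minus strand), a membrane-bound ligand of the Jagged family, was at 6.89 FPKM in FLAG and 5.67 with FLAG-CACUL1, and at 7.24 in sh-Luc and 7.28 with sh-CACUL1. The hairpin lines were level as deposited, with a ratio of 1.01 (interval 0.907 to 1.11), and the FLAG lines had a log2 fold change of -0.24. Under the scalings that centre all genes, sh-CACUL1 was above sh-Luc, by 0.47 after quantile normalization and by 0.42 with median-of-ratios scaling. Jag1 was therefore the member whose hairpin difference was highest under each of these scalings. Jag2, its paralog, was low, at 0.136, 0.172, 0.453 and 0.442 FPKM in FLAG, with FLAG-CACUL1, in sh-Luc and with sh-CACUL1, so Jag1 exceeded it by 50.6, 32.9, 16.0 and 16.5 times. The Delta-like ligand Dll4 was at 0.330 FPKM in sh-CACUL1 and under 0.1 in the other samples, and Dll1 is not analysed here.

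Numb (chr12:83794034-83921934, minus strand, 6 RefSeq transcripts in 1 row) encodes an endocytic adaptor that restrains the receptors. It was at 12.5 FPKM in FLAG against 10.8 with FLAG-CACUL1, and at 9.37 in sh-Luc against 6.88 with sh-CACUL1. sh-CACUL1 was again the lowest, but the log2 fold change between the hairpin lines was -0.40 as deposited and turned to 0.07 after quantile normalization and 0.03 with median-of-ratios scaling, so no direction is read from it. Between the FLAG lines it was -0.19. Its relative Numbl, which shares that role, followed the same order with a wider spread, at 32.0, 22.5, 15.0 and 7.32 FPKM, and the ratio of Numbl to Numb ran from 2.56 in FLAG through 2.08 and 1.60 to 1.06 in sh-CACUL1.

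The targets differed in level. Hes1 (NM_008235, chr16:30064384-30067796, plus strand), a transcriptional repressor and the classic target of Notch, was at 12.0 FPKM in the FLAG control and 14.6 upon overexpression, and at 22.6 in the sh-Luc control and 16.7 upon knockdown. Both hairpin lines lay above both FLAG lines, and within each pair the samples were closer than the controls were to each other. The log2 fold change was 0.26 between the FLAG lines, with a ratio of 1.22 (interval 1.02 to 1.44), and -0.86 for FLAG over sh-Luc. Between the hairpin lines the ratio was 0.739 (interval 0.652 to 0.838) and the log2 fold change -0.41, which became -0.01 after quantile normalization and 0.04 with median-of-ratios scaling. Against the other control the values were -0.60 upon overexpression and 0.45 upon knockdown, the opposite sign to those against the own control in both cases. So Hes1 gave no direction that held across scalings and controls, in the same samples in which Notch1, Notch2 and Rbpj were lower.

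Hey1 (NM_010423, chr3:8663359-8667256, minus strand), a related repressor, was at 0.0652, 0.0330, 0.235 and 0.156 FPKM in the samples in the order used above, from about 2, 1, 14 and 6 fragments. No fold is given for the FLAG lines, where both counts were at or under a floor of 3 fragments. The hairpin ratio of 0.664 had an interval of 0.215 to 1.89, so a difference was not detectable at this depth. Hes6, which encodes another HES family protein, was at 9.57, 15.1, 19.2 and 10.7 FPKM in the same order, with log2 fold changes of 0.61 between the FLAG lines and -0.78 between the hairpin lines, or -0.36 after quantile normalization and -0.34 with median-of-ratios scaling. Hes7, the segmentation clock repressor, was at 2.71 FPKM in FLAG and under 1 FPKM in the other samples, with a log2 fold change of -1.14 between the FLAG lines. Heyl and Nrarp are not analysed here.

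Over the 8 members, 1 was called between the FLAG lines, Rbpj, where 14.7% of all genes were called and 7.22% were called lower. Between the hairpin lines 3 of 8 were called, Notch1, Notch2 and Rbpj, all lower, where 21.3% of all genes were called and 16.4% were called lower. After quantile normalization the same 3 genes stayed past the cut-off, with 8.28% of all genes called lower, and with median-of-ratios scaling they did so with 7.45% called lower. The members' median log2 fold change was -0.15 between the FLAG lines and -0.67 between the hairpin lines, beside 0.09 and -0.30 over all genes. It became -0.24 and -0.28 after quantile normalization, and -0.28 and -0.26 with median-of-ratios scaling. Lower at any size between the hairpin lines were 7 of 8 members, beside 68.7% of all genes. After quantile normalization 6 of 8 were lower, beside 51.4% of all genes, and with median-of-ratios scaling 5 of 8, beside 49.0%. As deposited, Notch1, Jag1 and Hes1 had opposite signs in the comparisons, 3 of 8 beside 59.5% of all genes, with Jag1 at only 0.007 between the hairpin lines. After quantile normalization Numb joined them, giving 4 of 8. With median-of-ratios scaling the 3 were Notch1, Jag1 and Numb. The share of all genes was taken as deposited only.

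**Figure D2:**
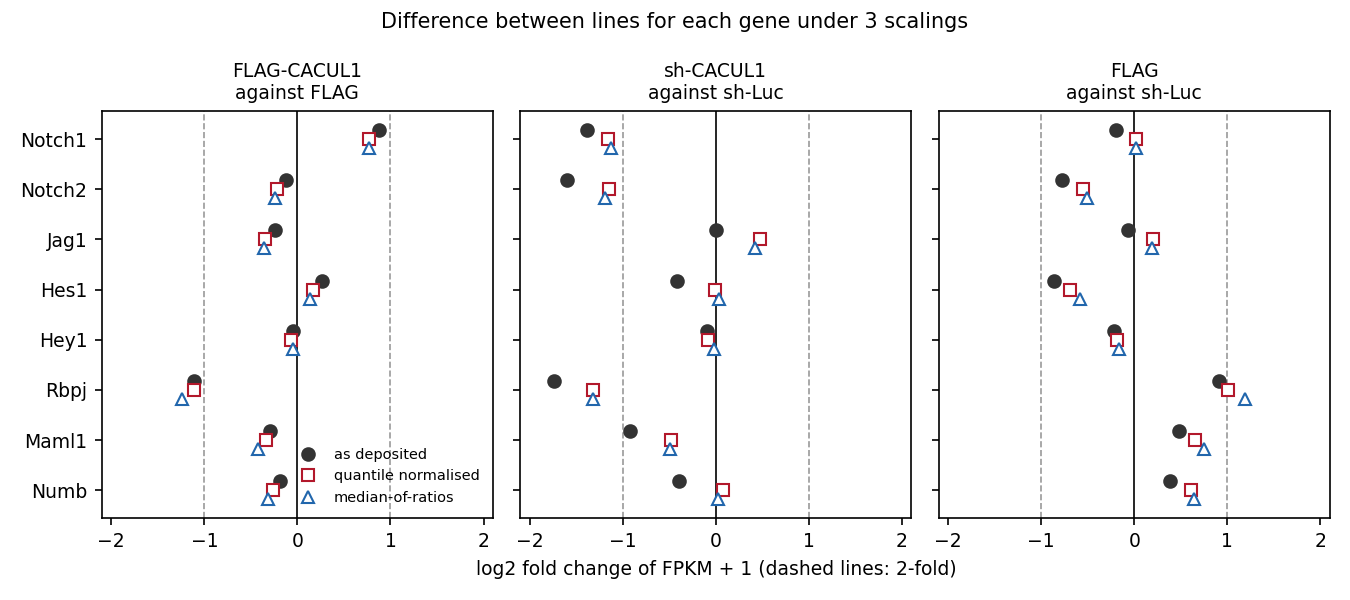
Log2 fold change of FPKM + 1 (x axis) for each gene (y axis) in 3 comparisons (panels), as deposited (filled circles), after quantile normalization (squares) and after median-of-ratios scaling (triangles); dashed lines mark 2-fold. Notch1, Notch2 and Rbpj stayed at or below -1.13 between the hairpin lines under all 3, whereas the points of Hes1 and Numb crossed 0.

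The controls are a measure of how far lines can differ without a change of CACUL1. Between FLAG and sh-Luc 0 of 8 members were called as deposited, where 21.0% of all genes were, close to the share between the hairpin lines. The members' log2 fold changes ran from -0.86 for Hes1 and -0.77 for Notch2 to 0.91 for Rbpj. Notch1 and Rbpj were the members for which both main differences were larger in size than the difference between the controls, which was -0.20 for Notch1. With the controls exchanged, 0 of 8 members were called for FLAG-CACUL1 over sh-Luc, where 9.90% of all genes were called. For sh-CACUL1 over FLAG 3 of 8 were called lower, Notch1, Rbpj and Maml1, where 15.4% of all genes were called lower. On the log2(FPKM + 1) scale Notch1 and Rbpj were therefore called lower in sh-CACUL1 against either control, whereas Notch2 and Maml1 were called against 1 control each. On plain FPKM Maml1 was 2.03-fold below sh-Luc and 2.89-fold below FLAG, and Notch2 was 3.54-fold and 1.96-fold below them. These comparisons share samples and are not independent of each other.

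The rest of the pathway was read from a list of 58 further genes, of which 49 had a row. Between the FLAG lines 35 of the 49 were higher in FLAG-CACUL1, beside 58.7% of all genes. There 5 of the 49 passed 2-fold, beside 14.7% of all genes. Ctbp1, a corepressor, was called higher, and Dlk1, Lfng, Hes7 and Dtx2 were called lower. Between the hairpin lines 39 of 49 were lower in sh-CACUL1 as deposited, beside 68.7% of all genes. After quantile normalization 33 of 49 were lower, beside 51.4% of all genes, and with median-of-ratios scaling 34 of 49, beside 49.0%. As deposited 3 were called higher and 9 lower, beside 4.94% and 16.4% of all genes. The 9 called lower lay between the cut-off and -1.21, another 7 lay between -0.9 and the cut-off, and 0 of them remained called after quantile normalization or median-of-ratios scaling. The list's median of -0.63 became -0.29 after quantile normalization and -0.19 with median-of-ratios scaling.

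The list was then read by role. The proteases that process the receptor outside γ-secretase, Furin, Adam10 and Adam17, were all lower in sh-CACUL1 under each scaling. Over all genes 68.7% were lower as deposited, 51.4% after quantile normalization and 49.0% with median-of-ratios scaling. The median of these proteases was -0.94 as deposited and -0.58 after quantile normalization. Furin, the convertase that matures the receptor, was at 34.7, 40.1, 24.6 and 11.0 FPKM, in the order FLAG, overexpression, sh-Luc, knockdown, which is kept for the genes that follow. Of 7 γ-secretase genes 6 were lower in sh-CACUL1 as deposited, beside 68.7% of all genes. After quantile normalization 5 were lower, beside 51.4% of all genes, and with median-of-ratios scaling 4, beside 49.0%. The subunit Ncstn had a log2 fold change of -1.10 between the hairpin lines, or -0.77 and -0.64 under these scalings, while Psen2, a catalytic subunit, was at 29.9, 21.7, 22.6 and 48.1 FPKM and so at 1.06, highest in sh-CACUL1.

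The 7 further genes of the nuclear complex were all higher in FLAG-CACUL1 than in FLAG as deposited, beside 58.7% of all genes. Their median was 0.64 and none passed 2-fold. After quantile normalization 6 of 7 were higher, beside 52.9% of all genes, with Maml3 at -0.04. Between the hairpin lines 6 of 7 were lower as deposited, beside 68.7% of all genes, and 5 of 7 after quantile normalization, beside 51.4%. The coactivators Maml2, Maml3, Ep300 and Crebbp were called lower as deposited, at -1.03, -1.05, -1.21 and -1.19. After quantile normalization they were at -0.60, -0.81, -0.76 and -0.72, under the cut-off. Against FLAG instead of sh-Luc the deposited values were -0.46, -0.49, 0.005 and -0.09. FLAG over sh-Luc gave -0.56, -0.55, -1.22 and -1.09. Kat2b, an acetyltransferase, stood apart at 4.86, 9.11, 10.3 and 23.5 FPKM, with a log2 fold change of 1.12, or 1.58 after quantile normalization. Among 10 corepressor genes 9 were lower in sh-CACUL1 as deposited, beside 68.7% of all genes, and 8 after quantile normalization, beside 51.4%. Ctbp1 was at 30.9, 67.4, 75 and 36.9 FPKM and Hdac2 at 23.9, 45.4, 64.1 and 29.9, so for both FLAG resembled sh-CACUL1 and FLAG-CACUL1 resembled sh-Luc. The ubiquitin ligase gene Dtx3 had this order too, at 20.0, 40.4, 42.0 and 19.7 FPKM. Its relative Dtx2 did not, at 22.5, 9.47, 11.5 and 14.7.

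Lfng, the Fringe glycosyltransferase that tunes which ligand a receptor answers to, had the lowest log2 fold change of the list between the FLAG lines. It was at 5.18 FPKM in FLAG but 0.127 with FLAG-CACUL1, and at 0.774 in sh-Luc and 1.17 with sh-CACUL1, a log2 fold change of -2.45 between the FLAG lines and 0.29 between the hairpin lines. Dlk1, a non-canonical ligand also used as a preadipocyte marker, had the highest between the hairpin lines, at 4.19. Its FPKM was 97.2 in FLAG and 39.4 with FLAG-CACUL1, and 0.220 in sh-Luc and 21.2 with sh-CACUL1, so the size of that change was set by a very low value in the control. FLAG over sh-Luc gave 6.33 for this gene.

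**Figure D3:**
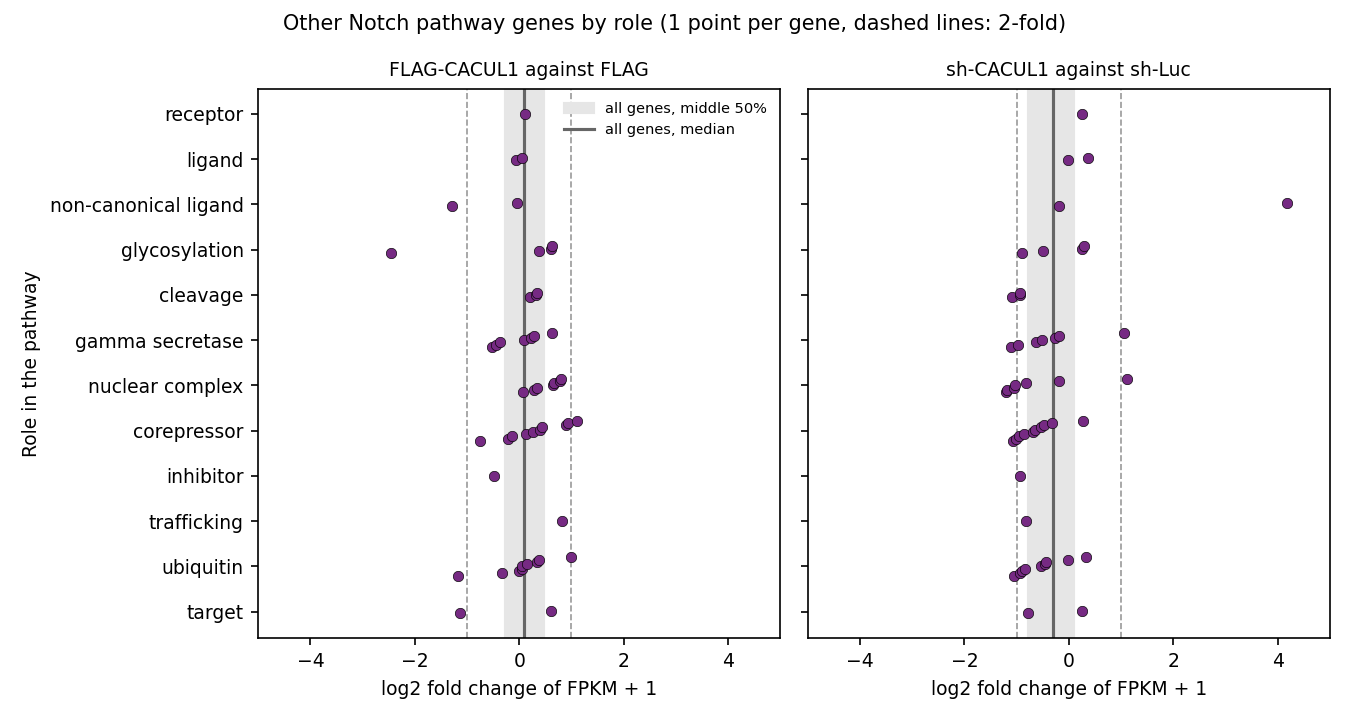
Log2 fold change of FPKM + 1 as deposited (x axis) of 49 further Notch pathway genes grouped by role (y axis) in the main comparisons (panels), 1 point per gene; the grey band holds the middle 50% of all genes, the grey line their median, and dashed lines mark 2-fold. Most points lay left of the all-gene median between the hairpin lines, with Dlk1 far to the right at 4.19 and Lfng far to the left at -2.45 between the FLAG lines.

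As the member of widest range, Rbpj was compared with all genes of at least 1 FPKM in every sample by the distance between centred log2(FPKM + 1) profiles over the 4 samples. Of 9562 genes, where the median distance was 1.89, the nearest were Efna1 at 0.09, Eif2b2 at 0.15, Palld and Jun at 0.20, and Vim at 0.25. Efna1, an ephrin ligand, was at 17.2, 7.49, 9.44 and 1.89 FPKM in that order, and Jun, a subunit of the AP-1 transcription factor, at 61.7, 26.1, 36.2 and 8.41. With 4 points such a likeness describes these samples only.

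Differentiation state varied among the same samples. The summed FPKM of adipocyte markers, 9 of 10 with a row, was 7493 in FLAG, 913 upon overexpression, 1730 in sh-Luc and 16695 upon knockdown. Most of the sum in FLAG, sh-Luc and sh-CACUL1 came from Fabp4. Of the genes, 9 were called lower between the FLAG lines, 9 called higher between the hairpin lines and 8 called higher in FLAG over sh-Luc. The shares of all genes were 7.22%, 4.94% and 8.58%. For sh-CACUL1 over FLAG, 4 were higher and 5 lower as deposited, beside 44.5% and 55.5% of all genes. After quantile normalization 6 were higher and 3 lower, beside 54.3% and 45.6%. Pparg, the master regulator of adipocytes, was at 70.1, 12.3, 14.8 and 61.8 FPKM, the hormone gene Adipoq at 837, 23.0, 171 and 1252, and the lipid carrier gene Fabp4 at 4991, 320, 1020 and 12543. Preadipocyte or fibroblast markers, 9 of 10 with a row, summed to 6256, 9740, 6575 and 1232, lowest in sh-CACUL1 as were Notch1, Notch2, Rbpj and Maml1. The sum was carried by Col1a1, Col3a1, Fn1 and S100a4, and of the 9 genes 5 were lowest in sh-CACUL1, 2 in FLAG and 2 in sh-Luc. Of the 9, 5 were called higher and 1 lower between the FLAG lines, beside 7.51% and 7.22% of all genes. Between the hairpin lines 2 were called higher and 6 lower, beside 4.94% and 16.4%. Notch1 had the same order of samples as the summed FPKM, with FLAG-CACUL1 highest, then sh-Luc, FLAG and sh-CACUL1. The genes that carried the sum did not have this order. Col1a1, Col3a1 and Fn1 were higher in FLAG than in sh-Luc, and S100a4 was highest in sh-Luc. Pdgfrb was the only marker of the list with the Notch1 order. Rbpj and Notch2 had other orders above the lowest sample, with FLAG highest for Rbpj and sh-Luc highest for Notch2. In a bulk sample fewer cells of a type and less RNA per cell cannot be told apart, and the part of differentiation state in the Notch values was not tested.

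The library of sh-Luc stood apart from the other 3 in some preadipocyte markers, with Dlk1 at 0.220 and Thy1 at 0.663 FPKM against at least 21.2 and 34.3 elsewhere. Other markers of that list went the other way. Pdgfra was highest in sh-Luc, at 84.9 FPKM against at most 40.9 elsewhere, and so was S100a4, at 2682 against at most 1761. Cell cycle genes, 6 of 6 with a row, summed to 65.9 in sh-Luc and to 23.4, 18.5 and 24.4 in the other samples, and 5 of 6 were called lower between the hairpin lines as deposited, beside 16.4% of all genes, but 0 of 6 after quantile normalization or median-of-ratios scaling, with the list median going from -1.24 to -0.84 and -0.83. The part of these differences in the hairpin comparison was not tested, and the values against FLAG above are those without sh-Luc. Markers of endothelium and skeletal muscle were low, while some macrophage and smooth muscle genes were not. Cd68 was at 16.2 FPKM in FLAG and Acta2 at 33.1 FPKM in sh-Luc. The endothelial list had 1 of 5 genes with a row, Pecam1 at 0.0217 to 0.301 FPKM, and the skeletal muscle list 1 of 5, Acta1 at 0.0514 to 0.679. Macrophage genes, 2 of 5 with a row, summed to 16.8 in FLAG, nearly all from Cd68, and to at most 1.84 elsewhere, and smooth muscle genes, 4 of 5, to 12.0, 29.9, 35.2 and 8.31, mostly from Acta2 where high.

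**Figure D4:**
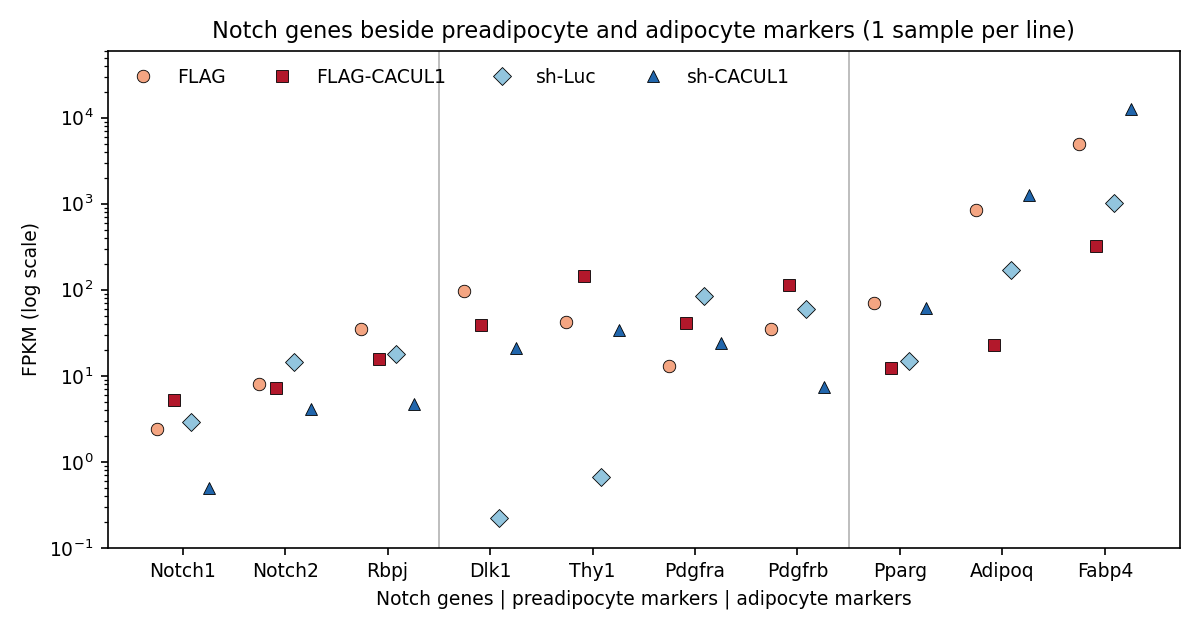
FPKM on a log scale (y axis) of Notch1, Notch2 and Rbpj beside preadipocyte and adipocyte markers (x axis) in the 4 samples, 1 point per sample. Pparg, Adipoq and Fabp4 were high in FLAG and sh-CACUL1, and the 3 Notch genes were lowest in sh-CACUL1. Dlk1 and Thy1 were under 1 FPKM in sh-Luc, where Pdgfra was highest.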

How the data were processed

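RNA-seq measured mRNA in 4 stable 3T3-L1 lines, 1 sample per line, grouped by the labels. A company prepared and sequenced the libraries. The authors deposited FPKM values for 13110 rows of RefSeq transcripts per sample. Their processing notes name mm10, and the aligner, counting program and any filter are not described in the sources used here. The number of values at 0 was 0, so rows with a 0 in any sample were absent. A gene without a row could therefore still be expressed in some lines, and shares of all genes refer to rows above 0 in every sample. Rows were joined to symbols through GENCODE M21 RefSeq identifiers on GRCm38 (196 rows without symbol, 8 with several), and 50 rows sharing 25 symbols were summed, which left 13085 genes. A pseudocount of 1 and a 2-fold cut-off were used, after the authors' cut-off, and no filter on low values was added here. Fragments were estimated here, from the spacing of low FPKM in transcripts of at least 3000 bases.

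The genes, lists and rules were chosen with earlier results of these data known. Named genes were the 9 members, further pathway genes past 2-fold in a main comparison with at least 1 FPKM in any sample, 8 fixed pathway genes, the 5 nearest profiles to the member of widest range, and Adipoq, Fabp4, Pparg and Cacul1. Adam10, Adam17, Numbl, other marker genes and the pseudogenes were named outside this rule, after their values were seen. There were 10 alternatives. The code was tested on simulated data. Python 3.11.15, numpy 2.4.6, scipy 1.17.1, pandas 2.3.3 and matplotlib 3.10.9 were used.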

Additional observations from a re-analysis of the deposited data

How the results depend on the processing

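No paired analysis was possible because each group had 1 sample. For the counts of called genes and of members in opposite directions, 38 values under an alternative were within 1.5 times the reported count. The other 20 were not, and no member's called value changed sign. The cause of the shifts was not tested.

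Members called between the FLAG lines were 2 with a pseudocount of 0.1 or none, where Notch1 joined Rbpj, and 0 at 3-fold or against the other control. Between the hairpin lines they were 4 with a pseudocount of 0.1 or none, where Maml1 joined. They were 2 at 3-fold or with at least 1 FPKM in all samples, where Notch1 dropped out. Members called between the controls were 1 with a pseudocount of 0.1 or none (Hey1, lower in FLAG), 1 with the same FPKM total (Hes1, lower) and 1 with quantile normalization or median-of-ratios scaling (Rbpj, higher). Members in opposite directions were 6 against the other control. Further pathway genes called between the FLAG lines were 8 without a pseudocount, 2 with at least 1 FPKM in all samples, and 1 at 3-fold or against the other control. Between the hairpin lines they were 21 with a pseudocount of 0.1, 22 with none, 6 with the same FPKM total, 3 with quantile normalization, 3 with median-of-ratios scaling and 1 at 3-fold. Depth limited Hey1, with at most 14 estimated fragments.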
